A study of Mus musculus with 15 samples.

Results

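The transcripts of 10 chemokine genes (Cxcl1, Cxcl2, Cxcl5, Cxcl9, Cxcl12, Cxcl16, Ccl2, Ccl5, Ccl20 and Cx3cl1) were followed in cultured and freshly isolated mouse hepatocytes. Every probe that the scanner files name for one of these genes was taken, which gave 10 of 27376 gene names and 14 of 41174 probes of the array. The chemokines were chosen by name, with earlier results of these data known. RNA came from expandable hepatocytes, liver cells that multiply in culture, which were kept for 21 days in a differentiation medium (mHep, 7 arrays) or an expansion medium (eHep, 7 arrays), and from uncultured primary hepatocytes (1 array). The labels do not spell out the name mHep, which is read here as the cells in differentiation medium, and the source label of the mHep array of 129S1-No2 says eHep while its title says mHep, which was followed here. The cultures came from 3 mice: C57B6-No1 (3 mHep and 3 eHep arrays), 129S1-No1 (3 and 3) and 129S1-No2 (1 and 1). The primary cells were released by collagenase perfusion from C57B6 mice, and the labels give neither how many mice nor whether they were pooled. Strain and mouse cannot be told apart, since C57B6 cultures came from 1 mouse. The arrays of one mouse and medium are treated as replicates, and nothing says that they came from separate cultures, so p-values from them measure only the spread between arrays of one mouse.

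Chemokines are small secreted or membrane-bound proteins that steer the migration of leukocytes through G protein-coupled receptors, and their names follow the spacing of conserved cysteines near the start of the protein (CXC, CC or CX3C). Many are switched on by NF-kB after signals such as tumour necrosis factor, interleukin-1 or endotoxin, others by interferon-gamma, and Cxcl12 is largely a homeostatic chemokine. In the injured liver, hepatocytes, bile duct cells, macrophages, endothelial cells and stellate cells are all described as sources of chemokines.

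Levels below are processed Cy3 signals of the scanner and, after scaling, log2 signals less that array's 75th percentile, so that 0 is the percentile itself. The scanner software called 48.8% to 61.8% of probes well above background in the cultures and 36.3% in primary cells. The 75th percentile itself was a signal of 249 to 826 on the cultured arrays and 78.3 on the primary array. Among 11 hepatocyte marker genes, 10 were well above background on at least 1 mHep array, 8 on at least 1 eHep array and all 11 on the primary array. Their summed signal was 122259 to 998714 in mHep, 3588 to 12577 in eHep and 752651 in primary cells. Of 11 macrophage markers, 5 were well above background on at least 1 mHep array and 6 on at least 1 eHep array, and of 10 endothelial markers 5 and 6. In both media these included Cd68, Csf1r, Marco, Lyz2 and Cd14 for macrophages and Kdr, Stab1, Stab2 and Clec4g for endothelium. Well above background in neither medium were Adgre1, Clec4f, Cd163, Timd4 and C1qa for macrophages and Pecam1, Cdh5 and Tie1 for endothelium. Of those, Cd163, Timd4, Pecam1 and Tie1 were not well above background in primary cells either. Bile duct genes were bright in culture, with a summed signal over 8 genes of 94874 to 396497 in mHep, 144250 to 223485 in eHep and 1206 in primary cells, where Krt19, Krt7, Epcam and Cftr were not well above background. In such bulk RNA, fewer cells of a type and less RNA per cell cannot be told apart. Replicate 3 of C57B6-No1 was scanned in both media with the primary array and 129S1-No2 (the earlier scan), apart from replicates 1 and 2 and all of 129S1-No1 (the later scan). It was the lowest of the 3 replicates for 9 of 13 chemokine probes in mHep and for 11 of 13 in eHep, by a median log2 difference of -1.22 and -2.14 from the mean of the other 2. For the chemokine probes, several results that rest on it are therefore also given from the later scan alone. Those of the other gene lists are given only with it included.

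Cxcl1 and Cxcl2 are neighbouring genes on chromosome 5 that encode ligands of Cxcr2, the receptor that draws neutrophils, and over the 14 cultured arrays their levels had the highest correlation between any 2 of the chemokines (r = 0.96). The 120 bases before the start site of each are shown because both hold the same textbook NF-kB motif, with the motif in capitals, on the plus strand of GRCm38.p6 (chr5:90891125-90891244 for Cxcl1 and chr5:90903779-90903898 for Cxcl2), as given by RefSeq.
Cxcl1: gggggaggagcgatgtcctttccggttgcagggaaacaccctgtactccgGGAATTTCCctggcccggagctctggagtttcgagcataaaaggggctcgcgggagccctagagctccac
Cxcl2: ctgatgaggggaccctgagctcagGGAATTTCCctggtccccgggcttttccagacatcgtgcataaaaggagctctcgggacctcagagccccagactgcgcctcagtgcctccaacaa
The motif GGAATTTCC lies at positions -70 to -62 from the start of Cxcl1 and at -96 to -88 from that of Cxcl2. It sits in a run of 14 identical bases, the longest that both windows share. On either strand of the 250 bases before the start site, it was found in 94 of 32851 RefSeq promoters, or 0.286%, and in 2 of the 6 chemokines that the table holds (Cxcl1, Cxcl2, Cxcl9, Cxcl12, Ccl20 and Cx3cl1). The looser motif GGNNNTTCC, which includes it, was found in 5 of these 6, all but Cxcl12, against 5144 promoters, or 15.7%. A match of letters is a description and says nothing on whether a factor binds there. The probes do not lie in these windows: in mm9 that of Cxcl1 is at chr5:91321845-91321904 and that of Cxcl2 at chr5:91334534-91334593, both in their mRNAs, and at most 26 of their 60 bases match without gaps.

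Cxcl1 was bright in every culture. Its signal ran from 12281 through a median of 22489 to 47362 in mHep and from 2470 through 16990 to 43572 in eHep, against 420 in primary cells. Cxcl2 was much closer to background, with signals of 79.9, 212 and 650 (lowest, median and highest) in mHep and 12.6, 161 and 543 in eHep, where 6 of 7 arrays were well above background, and 3.81 in primary cells, which was not. Both culture groups overlapped for both genes. Relative to the 75th percentile, Cxcl1 was higher on 13 of the 14 cultured arrays than in primary cells, and lower on the eHep array of C57B6-No1 replicate 3, at 1.90 against 2.42.

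Cxcl5, another Cxcr2 ligand, made by epithelial cells, lies near them on chromosome 5. Its probe lies at chr5:91190205-91190264 (mm9). Its signal ran from 6722 through 31751 to 105389 in mHep and from 2979 through 17399 to 26144 in eHep, and was 3.61 in primary cells, not well above background. The highest mHep readings were the 3 arrays of C57B6-No1 (40798, 105389 and 75901), and the lowest were the 3 arrays of 129S1-No1 (11901, 6722 and 13496). The corresponding eHep arrays read 18322, 17399 and 2979 in C57B6-No1 and 19378, 12080 and 14150 in 129S1-No1. In mHep these mice did not overlap, and in eHep their log2 levels lay within 5.49 to 5.74 apart from replicate 3 of C57B6-No1, at 2.17.

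**Figure D1:**
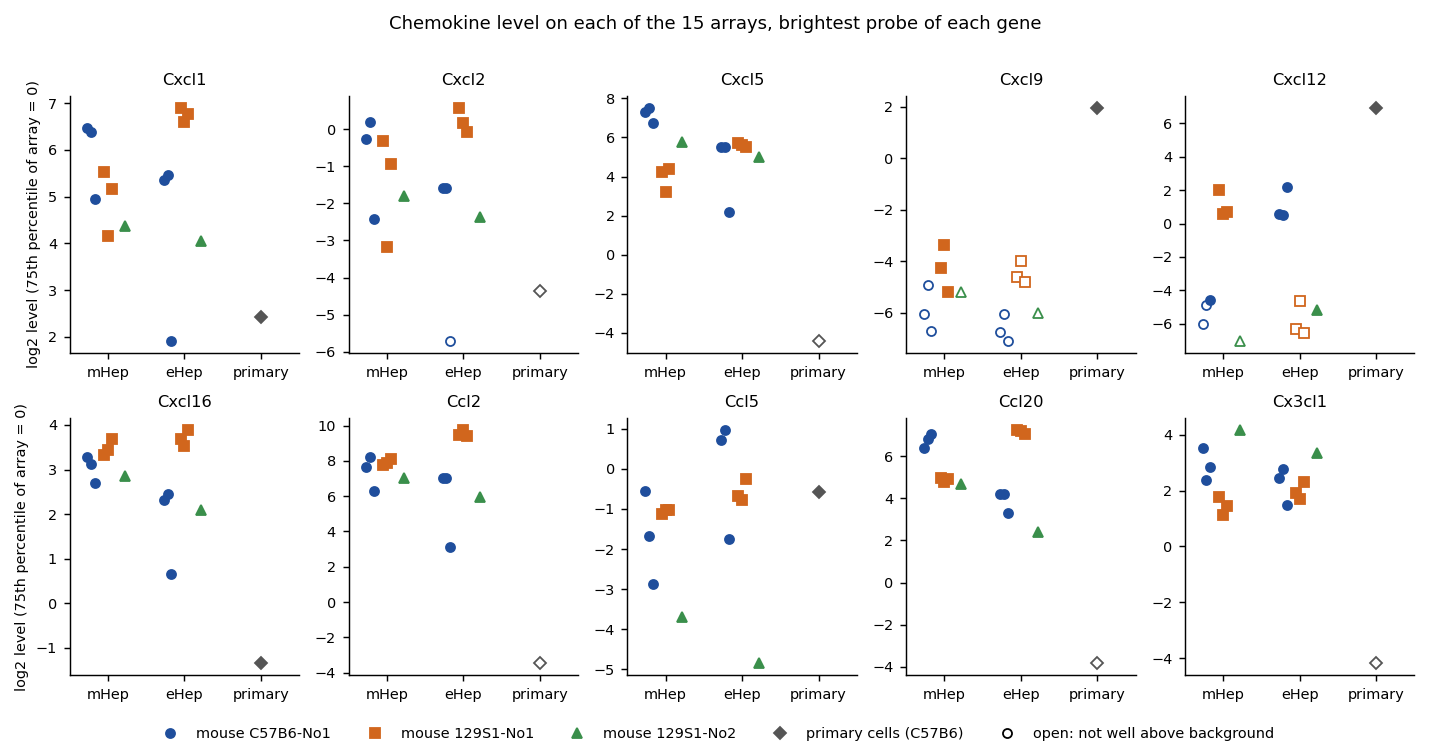
Log2 level of 1 probe of each chemokine on every array, relative to the 75th percentile of that array, in mHep, eHep and primary hepatocytes; colour and shape mark the mouse, open points were not well above background, and each panel has its own axis. Cxcl9 and Cxcl12 have their highest point in primary cells, while Cxcl5, Ccl2, Ccl20 and Cx3cl1 were not well above background there.

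Cxcl9, which interferon-gamma induces and which draws T cells through Cxcr3, was bright in primary cells and dark in most cultures. Its signal was 308 in primary cells, at a log2 level of 1.97. It was well above background on no eHep array (3.78 to 15.6) and on 3 mHep arrays, all from 129S1-No1 (33.1, 71.2 and 17.6). The other 4 mHep arrays read 3.91 to 19.0.

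Cxcl12, the homeostatic ligand of Cxcr4, had the widest swing of the 10 genes. Its probe A_51_P172502 (transcript variant 3, chr6:117131227-117131286 in mm9) read 9719 in primary cells, above every culture. In mHep it read 3.98, 19.4 and 28.9 in C57B6-No1, the last of which alone was well above background, 2503, 1096 and 1019 in 129S1-No1 and 4.44 in 129S1-No2. In eHep the mice stood the other way round, with 609, 547 and 3020 in C57B6-No1, 4.59, 9.92 and 3.24 in 129S1-No1, none of them well above background, and 23.1 in 129S1-No2. No cultured array read between 28.9 and 547, and each of C57B6-No1 and 129S1-No1 was bright in 1 medium, a different one. The second probe, A_52_P685021 (transcript variant 1, chr6:117124474-117124533), gave 316, 125 and 140 in mHep of 129S1-No1 and 60.4, 55.5 and 181 in eHep of C57B6-No1. It was not well above background on any other cultured array and read 529 in primary cells. The probes therefore differed on which arrays passed the background call (8 against 6 of the 14 cultured arrays) and ran in parallel otherwise, with r = 0.98 over these arrays, which share mice and libraries.

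Cxcl16 and Cx3cl1 are the transmembrane chemokines, released from the cell surface by the proteases Adam10 and Adam17, and bind Cxcr6 and Cx3cr1. Cxcl16 read 2428, 3366 and 4067 (lowest, median and highest) in mHep and 756, 2063 and 4668 in eHep with probe A_51_P374203 (listed at chr11:70269521-70272262) and 31.1 in primary cells. With probe A_52_P99888 (chr11:70267780-70267839) it read 2490, 4925 and 8265 in mHep, 1040, 2848 and 4646 in eHep and 30.8 in primary cells. Both probes ranked cultures above primary cells on every array, and their r over the 14 cultured arrays was 0.88. Cx3cl1 (probe A_51_P196925, chr8:97306185-97306244) read 1582, 2905 and 10714 in mHep and 796, 1822 and 8415 in eHep, with the highest value of each medium in 129S1-No2, and 4.29 in primary cells, not well above background. Its other probe, A_51_P205129, was designed on a cDNA clone and lies at chr8:97296742-97296801. It was well above background only on the eHep arrays of C57B6-No1 replicate 3 (196) and 129S1-No2 (21.6), and its r with the first was -0.16, so it carries none of the values below.

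Ccl2, which calls monocytes out of the blood through Ccr2, was read by 10 spots of 1 probe (chr11:81850650-81850709). It gave 52299, 137652 and 177699 in mHep and 5786, 52934 and 259011 in eHep, against 7.02 in primary cells, not well above background. Ccl20, the ligand of Ccr6 on dendritic cells and some T and B cells (chr1:83115500-83115559), read 15142, 20009 and 93582 in mHep, 4432, 7395 and 55650 in eHep and 5.48 in primary cells, again not well above background. Ccl5 draws T cells and monocytes. Its probe A_52_P638459 (chr11:83339296-83339355) gave 45.6, 177 and 356 in mHep, 28.5, 228 and 764 in eHep and 52.2 in primary cells. The other, A_51_P485312, whose position the files do not give, gave 11.6, 40.4 and 83.9 in mHep and 3.95, 63.5 and 214 in eHep, with 1 dark array in each (129S1-No2), and 8.44, not well above background, in primary cells. Both probes were parallel over the 14 cultured arrays (r = 0.99).

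**Figure D2:**
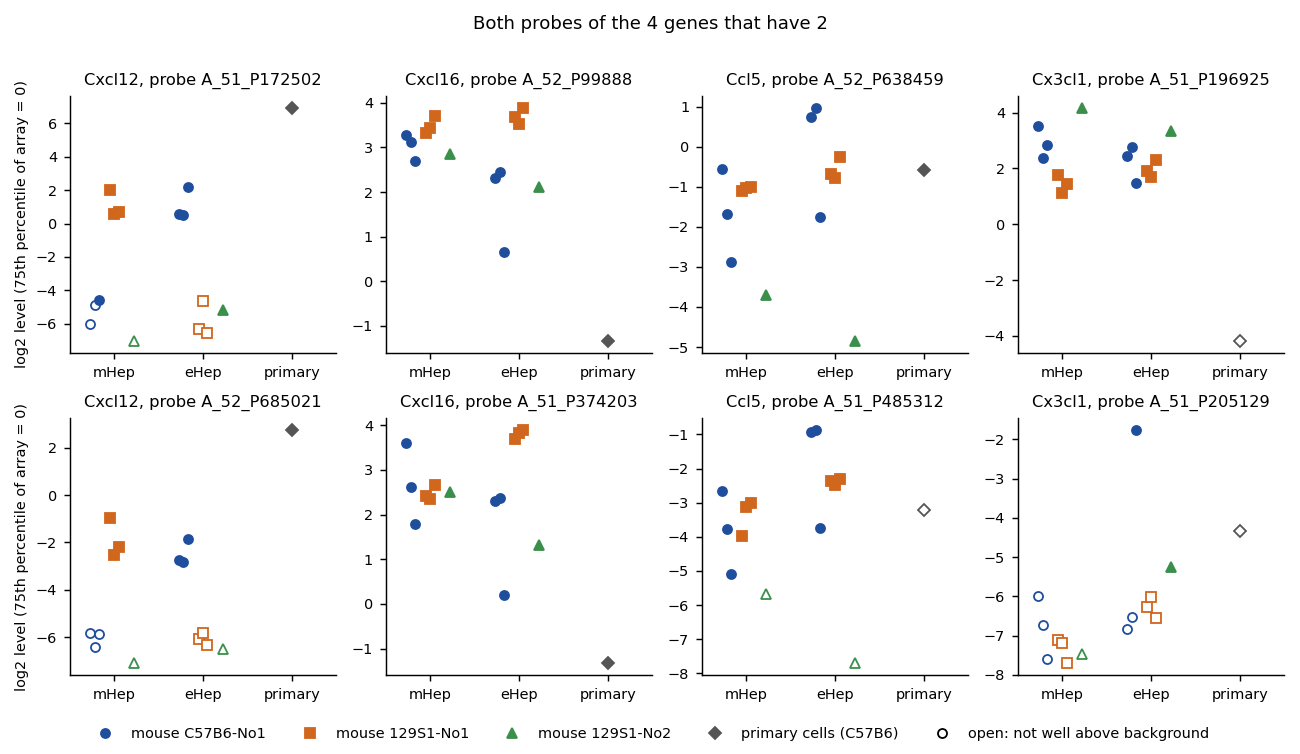
Log2 level of both probes of Cxcl12, Cxcl16, Ccl5 and Cx3cl1 on every array, 1 column for each gene, relative to the 75th percentile of that array; open points were not well above background. The Cxcl12, Cxcl16 and Ccl5 pairs run in parallel (r = 0.98, 0.88 and 0.99 over the cultured arrays), and the second Cx3cl1 probe is dark on all but 2 arrays.

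Against primary cells, both kinds of culture had higher Cxcl5, Ccl2, Ccl20 and Cx3cl1 and lower Cxcl9. These 5 genes passed limma's test (adjusted p under 0.05 and a log2 difference of at least 1, over all probes) in mHep and in eHep, and Cxcl16 passed it with 1 probe in mHep and both in eHep. Where a gene was not well above background on all arrays of the lower group, only a lower bound of the fold can be given. In mHep, 6 of 13 tested chemokine probes passed, 5 higher and 1 lower, against 9.56% of all probes tested. In eHep 7 of 13 passed, 6 higher and 1 lower, against 16% of all. The median log2 difference of the 13 probes was 3.00 in mHep and 2.66 in eHep, beside -0.21 and -0.07 over all probes tested, and 2.66 and 2.59 with dim probes set to their bounds. With normexp background correction the splits became 3 higher and 3 lower in both, and that correction moved the median of all probes by -0.36 in mHep and -0.37 in eHep.

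Ccl2 was at least 757-fold higher in mHep than in primary cells (limma, adjusted p = 0.00596) and at least 585-fold higher in eHep (adjusted p = 0.00484). Cxcl5 was at least 215-fold higher in mHep (adjusted p = 0.00398) and at least 138-fold higher in eHep (adjusted p = 0.00395). These 2 kept their calls under each alternative that tested them. Ccl20 was at least 188-fold higher in mHep (adjusted p = 0.0199) and at least 98.0-fold higher in eHep (adjusted p = 0.0207). Cx3cl1 was at least 31.0-fold higher in mHep (adjusted p = 0.0095) and at least 24.7-fold higher in eHep (adjusted p = 0.00809). With normexp correction both missed the threshold, at adjusted p of 0.0583 and 0.0716 for Ccl20 and 0.0621 and 0.06 for Cx3cl1 in mHep and eHep. Without C57B6-No1 the adjusted p was 0.0799 and 0.0573 for Ccl20, and 0.0591 for Cx3cl1 in mHep.

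Cxcl16 was higher in mHep by a log2 difference of 4.47 ± 0.82 (SE, 6 culture means and 1 primary array) with probe A_52_P99888 (limma, adjusted p = 0.0186) and by 3.88 ± 0.97 with A_51_P374203 (adjusted p = 0.0522). In eHep the differences were 3.88 ± 0.81 (adjusted p = 0.0214) and 3.58 ± 0.96 (adjusted p = 0.0479). Without C57B6-No1 no Cxcl16 probe passed, and A_51_P374203 also missed the threshold with normexp, with C57B6-No1 alone and in the earlier scan alone. Cxcl9 was at least 113-fold lower in eHep (adjusted p = 0.00412). In mHep it was lower too (adjusted p = 0.00685), but only the 3 arrays of 129S1-No1 were well above background, so no fold is given.

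The primary level exceeded every culture for both Cxcl12 probes, but with mouse means this far apart the test did not pass. For A_51_P172502, with 4 of 7 arrays of each medium well above background, the log2 difference was -10.67 ± 3.57 in mHep (limma, adjusted p = 0.111) and -10.26 ± 3.57 in eHep (adjusted p = 0.0985). For A_52_P685021, with 3 of 7, it was -7.77 ± 2.23 in mHep (adjusted p = 0.0768) and -7.77 ± 2.23 in eHep (adjusted p = 0.0582). The fits called 1 chemokine probe lower than primary cells in each medium. With normexp, or with C57B6-No1 arrays alone, they called 3. Of all probes, normexp called 6.41% in mHep and 12% in eHep, and C57B6-No1 alone 30.5% and 35.1%. Cxcl1 was higher by 2.66 ± 1.16 in mHep (adjusted p = 0.192) and by 2.59 ± 1.16 in eHep (adjusted p = 0.175), which missed the threshold too. Cxcl2, not well above background in primary cells, had bounds of 1.68-fold higher in mHep and 1.34-fold in eHep on means over the mice (limma, adjusted p = 0.162 and 0.175). In eHep only 129S1-No1, at a log2 level of 0.23, lay above the lowest level called well above background in primary cells (-2.12). C57B6-No1 was at -2.96 and 129S1-No2 at -2.36 there. Ccl5 had log2 differences of -1.57 in mHep and -1.23 in eHep with A_52_P638459 (adjusted p = 0.631 and 0.699). Its probe A_51_P485312 was not well above background in primary cells, so its differences of -1.08 and -0.76 give no direction (adjusted p = 0.789 and 0.843). There is 1 primary array, so the errors rest on the spread among culture means. Both comparisons share that array. The summed signal of 10 endothelial markers was 179 to 633 in mHep, 180 to 1320 in eHep and 1385 in primary cells, and that of 11 macrophage markers 17863 to 64036, 3652 to 16047 and 926, carried in mHep by Cd14, at 17654 to 63636. Their part in these differences was not tested.

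Between the media, no tested chemokine passed the test over the mice. Over the 3 mice, limma with mouse as a block called 0 of 11 tested chemokine probes, against 1.39% of all probes tested. At an unadjusted p under 0.05 the count was 3122 of the 22230 probes tested, and 0 of the 11 chemokine probes. No chemokine probe had 7 mHep arrays apart from the 7 eHep arrays, which 5.36% of all tested probes had. Ccl20 averaged 5.44 ± 1.14 in mHep and 4.50 ± 2.43 in eHep (log2 level, SD over 3 mouse means), a difference of 0.94 ± 1.00 (SE, limma, adjusted p = 0.739). Cxcl5 averaged 5.63 ± 1.63 in mHep and 4.99 ± 0.61 in eHep, a difference of 0.64 ± 0.83 (adjusted p = 0.792). The other differences lay between -0.40 (Cxcl12) and 0.59 (Cxcl16, A_52_P99888), and the median was 0.33 beside -0.07 over all probes. The mean difference of Cxcl1 was 0.07 ± 0.69, while its changes within C57B6-No1 and 129S1-No1 were 1.69 and -1.81.

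**Figure D3:**
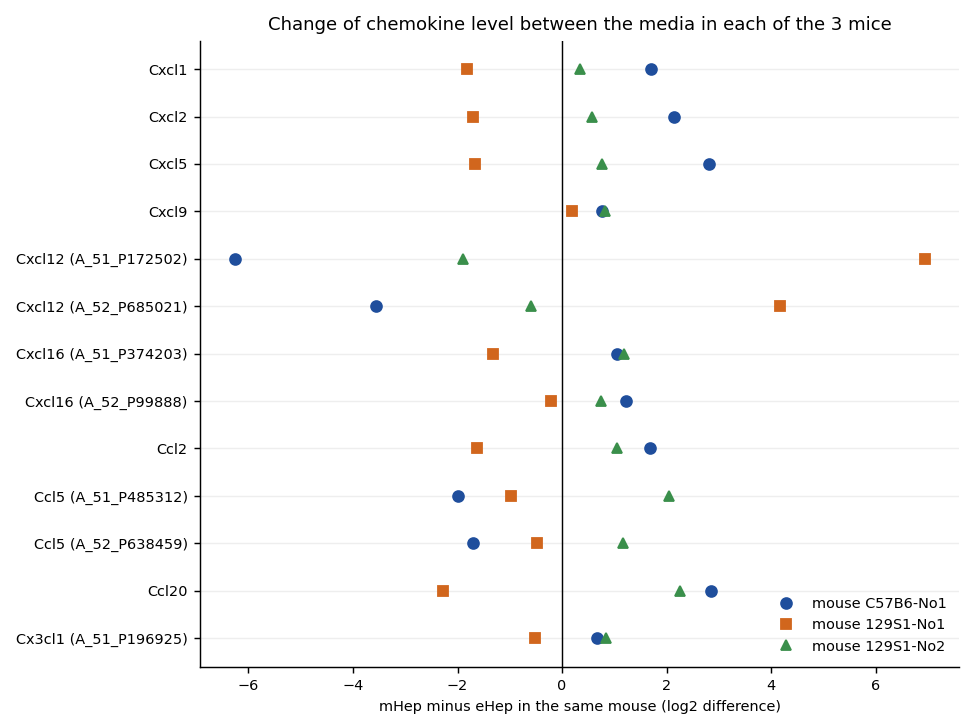
Log2 difference of mHep minus eHep for each tested chemokine probe in each mouse, from means of 3 arrays in C57B6-No1 and 129S1-No1 and from 1 array of each medium in 129S1-No2. C57B6-No1 and 129S1-No1 lie on opposite sides of 0 for 10 of 13 probes, and 129S1-No2 lies on the side of C57B6-No1 for 11.

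The direction of the change differed between the mice. Going by the mean of each mouse, C57B6-No1 and 129S1-No1 had opposite signs for 10 of 13 probes (76.9%), which was the case for 33.7% of 23831 probes over the array. For 8 probes (61.5%, against 14.1% of all) mHep was higher in C57B6-No1, lower in 129S1-No1 and higher in 129S1-No2. These 8 were Cxcl1, Cxcl2, Cxcl5, both Cxcl16 probes, Ccl2, Ccl20 and Cx3cl1. The changes in these mice were 1.69, -1.81 and 0.33 for Cxcl1, 2.13, -1.70 and 0.57 for Cxcl2, and 1.69, -1.62 and 1.06 for Ccl2. Cxcl12 ran against them, with -6.26, 6.94 and -1.90 at A_51_P172502. For Ccl5 C57B6-No1 and 129S1-No1 both had lower levels in mHep (-1.70 and -0.48 at A_52_P638459), and 129S1-No2 a higher one (1.16).

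Whether C57B6-No1 and 129S1-No1 differed in this change was tested on their 12 arrays. Cxcl5, Cxcl12 and Ccl20 did, with 4 of 13 chemokine probes passing (2 with a positive and 2 with a negative difference), against 15.4% of all probes. For Ccl20 the difference of the changes was 5.13 ± 0.39 (SE, limma, adjusted p = 4.04e-05), and for Cxcl5 it was 4.47 ± 1.05 (adjusted p = 0.018). For Cxcl12 it was -13.19 ± 0.91 (adjusted p = 2.47e-05) and -7.72 ± 0.57 (adjusted p = 3.28e-05), values that include readings at background and so depend on its level. The lowest adjusted p-values among the others were those of Cxcl1 at 3.50 ± 1.17 (adjusted p = 0.0664), Cxcl16 (A_51_P374203) at 2.37 ± 0.80 (adjusted p = 0.0695) and Ccl2 at 3.31 ± 1.25 (adjusted p = 0.096). The median over the 13 probes was 1.43, beside 0.11 over all.

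The count depended on replicate 3 of C57B6-No1, scanned apart. With the 10 arrays of the later scan alone 10 of 13 chemokine probes passed, 7 positive and 3 negative, as did 33.1% of all probes, and with scan as a block 10 of 13 passed, as did 37.5%. For Cxcl1 the difference of the changes in the later scan was 2.83 ± 0.49 (limma, adjusted p = 0.0031), for Cxcl2 3.25 ± 0.96 (adjusted p = 0.0305), and for Ccl2 2.57 ± 0.31 (adjusted p = 0.000555). The Cxcl16 probes gave 2.10 ± 0.38 (adjusted p = 0.00415) and 1.03 ± 0.27 (adjusted p = 0.0192), and Ccl5 (A_52_P638459) gave -1.49 ± 0.44 (adjusted p = 0.0294). Cxcl5, Ccl20 and Cxcl12 kept their calls there, at 3.60 ± 0.45, 4.68 ± 0.26 and, for A_51_P172502, -12.92 ± 0.89. Cx3cl1 (0.86 ± 0.49, adjusted p = 0.198) and Cxcl9, dark in most cultures, passed in neither fit.

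**Figure D4:**
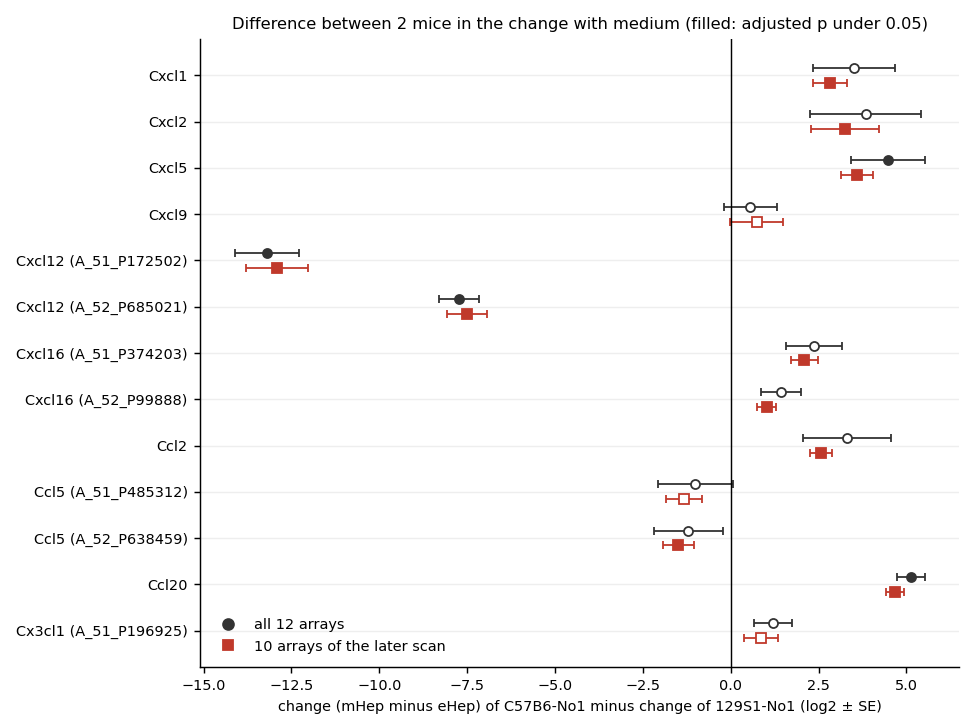
Change of C57B6-No1 (mHep minus eHep) minus the change of 129S1-No1, as log2 difference ± SE for each tested chemokine probe, from all 12 arrays (circles) and from the 10 arrays of the later scan (squares); filled symbols had an adjusted p under 0.05. Cxcl5, both Cxcl12 probes and Ccl20 are filled in both, and Cxcl1, Cxcl2, both Cxcl16 probes, Ccl2 and 1 Ccl5 probe only in the later scan.

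Within C57B6-No1, mHep had more Cxcl5 and Ccl20 and less Cxcl12 than eHep. Here 5 of 13 chemokine probes passed, 3 higher and 2 lower, against 25.1% of all probes. Ccl20 read 21403, 63610 and 93582 in mHep and 7395, 7183 and 6470 in eHep without overlap, a 7.21-fold difference (limma, adjusted p = 4.15e-05). Cxcl5 was 7.03-fold higher (adjusted p = 0.0177), a log2 difference of 2.81 that was 1.71 without eHep replicate 3 and missed the threshold without mHep replicate 2 (adjusted p = 0.0618). Cxcl16 was 2.34-fold higher with A_52_P99888 (adjusted p = 0.0497), a call lost with normexp (adjusted p = 0.127), with no filter on dim probes (adjusted p = 0.0913) and when any of 10 of the 12 arrays was left out, and its log2 difference of 1.23 was 0.65 without eHep replicate 3. Cxcl12 was at least 4.13-fold lower with A_52_P685021 (adjusted p = 0.000122, and 0.173 with normexp). With A_51_P172502, where 1 mHep array was well above background, the log2 difference was -6.26 ± 0.65 (adjusted p = 6.92e-05). In the later scan alone 8 of 13 probes passed, 4 higher and 4 lower, beside 30.9% of all probes. There Ccl2 was 0.95 ± 0.24 higher (limma, adjusted p = 0.017) and Ccl5 1.98 ± 0.34 lower with A_52_P638459 (adjusted p = 0.00255), where the value is a size on the log2 scale. In the later scan no slide held both media of this mouse, so slide and medium cannot be told apart there. Only its replicate 3 arrays of both media shared a slide.

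Within 129S1-No1 the medium moved Ccl20 and Cxcl12 the other way. Only 3 of 13 chemokine probes passed, 2 higher and 1 lower, where 45.8% of all probes did. Ccl20 read 19558, 20009 and 19489 in mHep and 55650, 36919 and 41169 in eHep, without overlap, and was 4.85-fold lower in mHep (limma, adjusted p = 0.000133). Cxcl12 was at least 34.6-fold higher in mHep with A_51_P172502 (adjusted p = 2.54e-05) and at least 4.34-fold higher with A_52_P685021 (adjusted p = 3.24e-05). All arrays of this mouse belong to the later scan, and with the spread estimated there 9 of 13 probes passed, 2 higher and 7 lower, beside 65.4% of all probes in that fit. The chemokine count is thus close to the share over the array. The added ones were Cxcl1 (-1.81 ± 0.31, adjusted p = 0.000929), Cxcl2 (-1.70 ± 0.61, adjusted p = 0.0335), Cxcl5 (-1.66 ± 0.29, adjusted p = 0.000984), Cxcl16 with A_51_P374203 (-1.33 ± 0.24, adjusted p = 0.00136), Ccl2 (-1.62 ± 0.20, adjusted p = 0.000154) and Ccl5 with A_51_P485312 (-0.98 ± 0.32, adjusted p = 0.0229). The 3 eHep arrays of this mouse lay on 1 slide and its 3 mHep arrays on another, so slide and medium cannot be told apart within it.

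Between the mice, C57B6-No1 cells had less Cxcl1, Cxcl16, Ccl2 and Ccl20 and more Cxcl12 than 129S1-No1 cells in eHep, and more Cxcl5, Ccl20 and Cx3cl1 and less Cxcl12 in mHep. In eHep 8 of 13 chemokine probes passed (adjusted p under 0.05 and a log2 difference of at least 1), 2 higher and 6 lower in C57B6-No1, against 21.4% of all probes. In mHep 6 of 13 passed, 3 in each direction, against 21.3%. The medians of the 13 probes were -0.46 in mHep and -1.89 in eHep, beside -0.09 and -0.13 over all probes.

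In mHep, Cxcl5 was 9.49-fold higher in C57B6-No1 than in 129S1-No1 (limma, adjusted p = 0.00795), Ccl20 3.61-fold higher (adjusted p = 0.000533) and Cx3cl1 2.76-fold higher (adjusted p = 0.0156). Cxcl12 was at least 6.13-fold lower with A_52_P685021 (adjusted p = 2.73e-05), and Cxcl9 at least 1.20-fold lower (adjusted p = 0.0444). The Cxcl9 call was lost under 13 of the alternatives, the later scan among them. That of Cx3cl1 was lost without mHep replicate 2 of 129S1-No1 (adjusted p = 0.0656) or replicate 1 of C57B6-No1 (adjusted p = 0.051). No slide held mHep arrays of both mice, so slide and mouse cannot be told apart within mHep.

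In eHep, Ccl2 read 52934, 49984 and 5786 in C57B6-No1 and 259011, 217817 and 209475 in 129S1-No1, a 14.2-fold lower mean level after scaling (limma, adjusted p = 0.00858). That log2 difference of -3.83 was -2.53 without replicate 3 of C57B6-No1 and in the later scan (adjusted p = 3.92e-05). Ccl20 was 9.68-fold lower in C57B6-No1 (adjusted p = 1.19e-05), and Cxcl16 4.54-fold and 3.71-fold lower with its probes (adjusted p = 0.0157 and 0.00613), with log2 differences of -1.47 and -1.31 in the later scan. Cxcl1 was 5.77-fold lower (adjusted p = 0.0432), a call lost with quantile normalization (adjusted p = 0.0674), normexp correction (adjusted p = 0.101), slide as a block (adjusted p = 0.0683), no filter on dim probes (adjusted p = 0.0703), in the authors' deposited table of values (adjusted p = 0.067) and when any of 8 of the 12 arrays was left out. It was kept in the later scan, where the log2 difference was -1.36 ± 0.35 (adjusted p = 0.0148). Cxcl12 was at least 34.6-fold higher in C57B6-No1 with A_51_P172502 (adjusted p = 2.66e-05) and at least 2.93-fold higher with A_52_P685021 (adjusted p = 9.1e-05, and 0.386 with normexp). Cxcl9 also passed, but was not well above background in either mouse and has no fold. In the later scan both Ccl5 probes were higher in C57B6-No1, by 1.49 ± 0.36 (adjusted p = 0.0116) and 1.43 ± 0.31 (adjusted p = 0.00708).

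**Figure D5:**
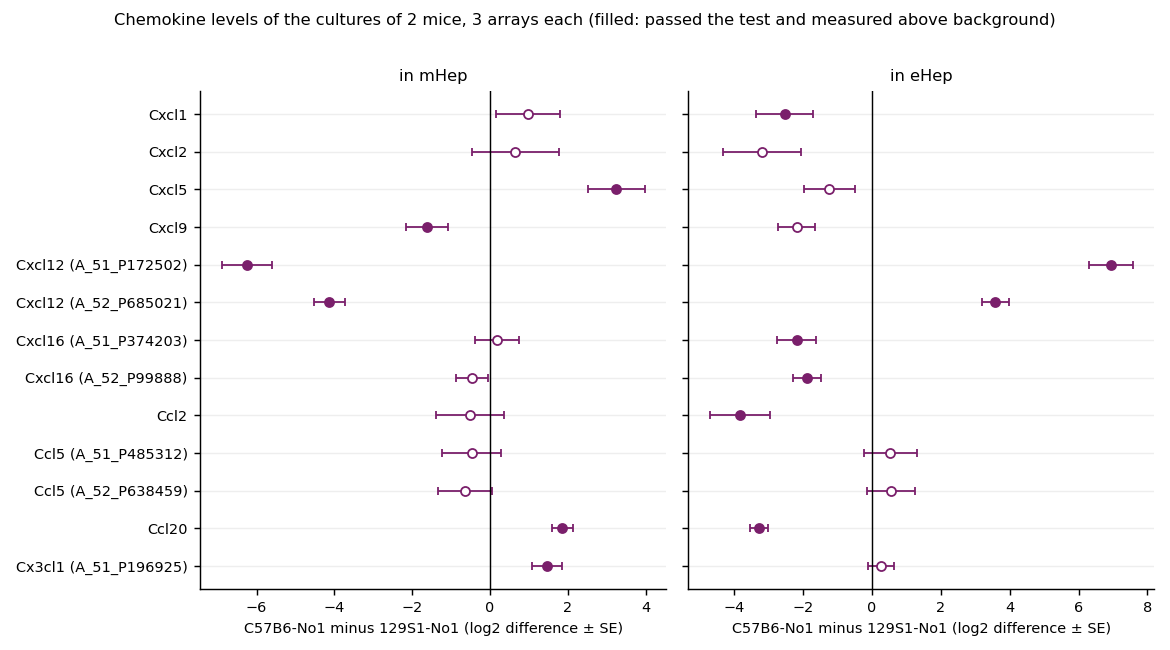
Log2 level of C57B6-No1 minus that of 129S1-No1 ± SE, 3 arrays each, for every tested chemokine probe in mHep (left) and eHep (right); filled points passed the test in a probe that was well above background in at least 1 of the mice. The Cxcl12 and Ccl20 points are filled in both panels and change side between them.

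Other genes of the pathway were read on the same arrays, with replicate 3 of C57B6-No1 included. Their values are not given from the later scan alone. Of 27 further chemokines on the array, 20 were well above background on at least 1 array. Among the 10 tested between media over all mice, Ccl6, a ligand of Ccr1, was lower in mHep (log2 difference -2.66 ± 0.39, limma, adjusted p = 0.0401) and none was higher. Of 14 tested for a difference between C57B6-No1 and 129S1-No1 in the change, 5 had a positive and 1 a negative difference (median 1.55 beside 0.11 over all probes), where 15.4% of all probes passed. Named here after their values were seen, these were Ccl8 (6.35), Cxcl3 (5.33), Cxcl11 (4.77), Cxcl15 (4.09), Cxcl17 (2.24) and Ccl9 (-3.83). Cxcl3 is a further Cxcr2 ligand beside Cxcl1, Cxcl2 and Cxcl5 and ranked second in likeness to Cxcl1.

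Of 23 chemokine receptor genes, 15 were well above background on at least 1 array and 8 on none, among them Cxcr2 and Cx3cr1, which bind Cxcl1, Cxcl2, Cxcl5 and Cx3cl1. None of 3 tested between media over the mice changed. Of 6 tested for a difference between C57B6-No1 and 129S1-No1 in the change, Ccrl2 alone passed (3.93 ± 0.99, limma, adjusted p = 0.0274), where 15.4% of all probes did. Of 8 chemokine-processing genes, none of 5 tested changed between media. Of 6 tested for a difference of the changes, 1 had a positive and 1 a negative one, where 15.4% of all probes passed. Dpp4, the peptidase that clips Cxcl9 and Cxcl12, was the positive one (4.74 ± 1.06, limma, adjusted p = 0.0145). In eHep 1 of 6 was higher and 1 lower in C57B6-No1, where 21.4% of all probes passed. Dpp4 was the lower one (-5.07, limma, adjusted p = 0.000616).

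In the list of NF-kB signalling and feedback genes, 5 of 17 were higher in eHep than in primary cells and 4 of 16 in mHep, with none lower, where 16% and 9.56% of all probes passed in either direction. Vcam1, an adhesion molecule, was higher by a log2 difference of 7.22 in mHep (limma, adjusted p = 0.00696) and 8.90 in eHep (adjusted p = 0.00299). Tnfaip3, the feedback inhibitor A20, was higher by 6.25 in mHep (adjusted p = 0.00652) and 5.94 in eHep (adjusted p = 0.00552). None of 17 passed between the media over the mice. For the difference of the changes between C57B6-No1 and 129S1-No1 4 of 17 passed, all positive (Nfkbia, Vcam1, Tnfaip3 and Nfkbiz, at 2.40, 2.24, 1.48 and 1.41), with a median of 1.16, where 15.4% of all probes passed. In eHep 9 of 17 were lower in C57B6-No1 than in 129S1-No1 and none higher, where 21.4% of all probes passed, with a median of -1.25 beside -0.13 over all probes.

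Genes that interferon-gamma induces were followed as well. Iigp1, an interferon-inducible GTPase, was higher in mHep over the mice (6.36 ± 0.39, limma, adjusted p = 0.00308), the 1 gene of 12 that passed. Of 13 tested, 6 had a positive and none a negative difference of the changes between C57B6-No1 and 129S1-No1 (median 1.76), where 15.4% of all probes passed. In eHep 10 of 13 were lower in C57B6-No1 and none higher (median -2.31), where 21.4% of all probes passed. Among 11 cytokine and receptor genes that induce chemokines, 3 were lower there and none higher, of which Tnf had a log2 difference of -3.77 (adjusted p = 0.00289) and the endotoxin and lipopeptide receptor gene Tlr2 one of -3.55 (adjusted p = 0.00049).

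Markers of other cells that moved with the mouse and medium stood beside these results. The summed signal of 12 lymphocyte and neutrophil markers was 37094 to 121435 in mHep and 198 to 291 in eHep of C57B6-No1, and 3560 to 5154 in mHep and 2302 to 2747 in eHep of 129S1-No1. It was carried by S100a8 and S100a9, at up to 51718 and 69593 in mHep, which epithelial cells also express, while Cd8a, Nkg7 and Gzma were not well above background on any cultured array and Ptprc on no eHep array. The macrophage sum was 42928 to 64036 in mHep and 3652 to 13251 in eHep of C57B6-No1, and 27145 to 53527 and 11385 to 16047 in those of 129S1-No1. The stellate and fibroblast sum of 10 genes was 574 to 3550 in mHep and 154 to 273 in eHep of C57B6-No1, and 2400 to 7164 and 340 to 517 in those of 129S1-No1, with 4 of the 10 well above background on at least 1 mHep array and 7 on at least 1 eHep array, and Des, Pdgfrb and Lum on none. The endothelial sum was 215 to 290 in mHep and 425 to 602 in eHep of C57B6-No1, and 510 to 633 and 788 to 1320 in those of 129S1-No1. The part of these cell types in the chemokine levels was not tested.

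Over the 15 arrays, the genes whose log2 level was most like that of each chemokine were taken from 11338 genes well above background on at least 12 arrays, as a description over arrays that share mice. Cxcl1 was most like Cxcl2 (r = 0.97), Cxcl3 (r = 0.94) and Mc2r (r = 0.92). Ccl2 was most like Cxcl16 (r = 0.97), Krt7 (r = 0.97) and Relb (r = 0.97), and Cxcl16 like Slco3a1 (r = 0.98), Ccl2 and Vil1 (r = 0.97). Ccl20 was most like Plekhh1 (r = 0.97), Tor4a (r = 0.95) and Timp1 (r = 0.95), and Cxcl5 like Pamr1, Plat and Galnt12 (each r = 0.95). Cx3cl1 was most like St3gal2, Pfkp (each r = 0.97) and Trim35 (r = 0.96), and Ccl5 like Smg8 (r = 0.94), Eola1 (r = 0.94) and Guca1b (r = 0.93). For Ccl2, Ccl20, Cxcl5, Cxcl16 and Cx3cl1 the primary array lay below every culture, and it is 1 of the 15 points behind these values.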

How the data were processed

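Total RNA of 15 samples was labelled with Cy3 and hybridised to 1-colour Agilent mouse arrays. Per the file headers, the deposited scanner files hold the processed signal, an intensity after the scanner software's background correction. The authors' deposited value table holds log2 values with a median of 4.92, which tracked the scanner values (r from 0.972) and served as an alternative; its scaling is not given in the sources used here. From the intensities, log2 of the processed signal minus the 75th percentile of each array was computed, control and outlier spots were left out and spots of a probe averaged. Probes carry the files' gene names, or current ones through their RefSeq accession (27668 of 41174). Positions are those of the files (mm9). R 4.3.3 and limma 3.58.1 were used, with Benjamini-Hochberg adjustment over all tested probes. The fits between media, for the difference of the changes and between mice in mHep were tested on simulated data. Those against primary cells were not. Media and primary cells were compared on means per mouse and medium, with mouse as a block between media, since the media of a mouse deviated together (r = 0.34, 0.56 and 0.50, against at most 0.048 between mice). Mice were compared on 12 arrays in 1 fit. A call needed an adjusted p under 0.05, and against primary cells or between mice also a log2 difference of at least 1. Fold bounds set a dim probe to the lowest signal well above background on its array, where that is higher than its own. The alternatives changed the scaling, background correction, filter, block and arrays used. The chemokines and gene lists were chosen with earlier results of these data known. In each other list, up to 3 genes with the largest change between media among those called are named, besides genes that a result turns on. Ccrl2, Dpp4, Vcam1, Tnfaip3, Nfkbia, Nfkbiz, Tnf, Tlr2, Cd14, S100a8 and S100a9 were named after their values were seen. Array number limits the precision.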

Additional observations from a re-analysis of the deposited data

Results flagged for a closer look

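In eHep, replicate 3 of C57B6-No1 stood apart for Cxcl5, at a log2 level of 2.17 and a signal of 2979, while the other 6 eHep arrays lay between 4.98 and 5.74. Its gap to the nearest array was 0.788 of the whole range. Of 17 groups tested in this way 1 stood out, and chance gives about 1 in 20. The array was scanned with the earlier set.

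The change between media differed between C57B6-No1 and 129S1-No1, by the test of the difference itself, for Cxcl5 (4.47), Cxcl12 (-13.19 with A_51_P172502 and -7.72 with A_52_P685021) and Ccl20 (5.13). The third mouse, 129S1-No2, had 1 array in each medium and its changes for these probes were 0.76, -1.90, -0.59 and 2.25, on the side of C57B6-No1. It was not part of the test.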

How the results depend on the processing

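Of 2067 recomputed values, 1826 kept their direction and side of the threshold, 129 passed it anew, 60 lost it and 52 changed sign. Sign changes by normexp correction were Cxcl1 between media (-0.027), Cxcl9 in the difference of the changes (-0.022) and Cxcl2 between mice in mHep (-0.11). With 14 arrays and mouse as a term, Cxcl1 came to -0.0044 and Cxcl12 (A_51_P172502) to 0.021 between media. Within the later scan, the media differed by -0.68 for Cxcl1, -0.40 for Cxcl2, -0.22 for Cxcl5, -0.49 for Cxcl16 (A_51_P374203), -0.60 for Ccl2, -0.41 for Ccl20 and -0.18 for Cx3cl1, and within the earlier scan by 0.012 for Ccl5 (A_52_P638459). From C57B6-No1 alone, Ccl5 was 1.37 and 0.57 higher in eHep than in primary cells with its probes. Between mice in mHep, Ccl2 came to 0.41 (scan block), 0.038 (later scan) and 2.25 (slide block, limma, adjusted p = 0.0205). Ccl5 came there to 0.32, 0.16 and 1.16 with A_51_P485312, and to 0.073 (scan block) and 0.90 (slide block) with A_52_P638459, and Cxcl16 (A_52_P99888) to 0.99 with the slide block. Within 129S1-No1, Cxcl9 was -0.23 with dim readings raised to the floor and -0.50 with the slide block, and Cxcl16 (A_52_P99888) 0.24 with quantile normalization, 0.24 in the authors' deposited table and 0.19 when scaled by the probes detected on all arrays. The cause of these changes was not tested.

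Leaving out 1 mouse or array gave, between media, -0.74 to 1.01 for Cxcl1, -0.57 to 1.35 for Cxcl2, -0.45 to 1.79 for Cxcl5, -0.14 to 1.11 for Cxcl16 (A_51_P374203), -0.28 to 1.37 for Ccl2, -1.09 to 0.34 for Ccl5 (A_52_P638459) and -0.012 to 2.55 for Ccl20. In eHep against primary cells it gave 1.099 for Ccl5 with A_51_P485312 (without 129S1-No2) and -2.13 to 0.29 with A_52_P638459. Between mice in mHep it gave -0.20 to 1.44 for Cxcl2, -0.29 to 0.63 for Cxcl16 (A_51_P374203), -0.94 to 0.038 for Ccl2 and -1.05 to 0.16 for Ccl5 (A_51_P485312), in eHep -0.013 to 0.64 for Cx3cl1, and within 129S1-No1 -0.26 to 0.66 for Cxcl9.

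The chemokine probes called between media (0, beside 1.39% of all probes) became 5 on arrays of the earlier scan (10.3% of all) and 2 on those of the later one (51.5%). With 1 mouse or array left out they were 0 to 3, the highest without 129S1-No1 (9.68%). In eHep against primary cells (7, beside 16%) they were 4 to 8, lowest without C57B6-No1 (6.89%). In mHep (6, beside 9.56%) they were 3 to 10, lowest without C57B6-No1 (3.29%) and highest without 129S1-No1 (14.9%). With no filter on dim probes mHep had 10 (32.2%). The filter that required every array well above background had fewer probes to test. Against primary cells it left 2 in eHep (11.3%) and 1 in mHep (5.74%). It left 2 for the difference of the changes (15%), and between mice 3 in mHep (16.1%) and 5 in eHep (18.8%). It left 3 within C57B6-No1 (26.3%) and 1 within 129S1-No1 (48.1%). For the difference of the changes (4, beside 15.4%) there were 10 (scan block, 37.5%), 10 (later scan, 33.1%) and 8 (slide block, 6.81%). Leaving out 1 array gave 4 to 7, highest without mHep replicate 3 of C57B6-No1 (30.3%). Between mice it gave 4 to 6 in mHep (6), beside 16.7% to 26.4% of all probes. In eHep (8) it gave 6 to 9, beside 16.8% to 23.7%. Within C57B6-No1 (5, beside 25.1%) the counts were 3 with normexp (7.93%), 11 (scan block, 37.9%), 8 (later scan, 30.9%) and 8 (slide block, 16.3%). With 1 array left out they were 3 to 6, lowest without mHep replicate 2 (19.3%). Within 129S1-No1 (3, beside 45.8%) they were 9 with scan as a block (63.9%) and 9 in the later scan (65.4%). With 1 array left out they were 3 to 7, highest without eHep replicate 3 of C57B6-No1 (52.3%).

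Replicate numbers did not pair the arrays throughout: deviations of same-numbered arrays correlated at 0.57, -0.16 and 0.70 in C57B6-No1 and at -0.033, -0.079 and -0.13 in 129S1-No1. In C57B6-No1, mHep replicate 3 did go with eHep replicate 3, against -0.58 and -0.64 with eHep replicates 1 and 2. Both replicate 3 arrays are from the earlier scan. Its mHep replicate 1 was closer to eHep replicate 2 (0.72) than to eHep replicate 1. With the replicate block 9 chemokine probes were called for the difference of the changes, beside 25.6% of all probes. Between mice there were 6 in mHep (21.8% of all) and 9 in eHep (22.2%). There were 11 within C57B6-No1 (29.1%) and 9 within 129S1-No1 (56.8%). Between media over all probes, 309 calls became 5 with no mouse block, 141 with normexp, 133 with quantile normalization, 94 when scaled by the probes detected on all arrays, 831 with no filter, 157 with the strict filter and 7547 with 14 arrays. The share of calls that were higher moved, from 75.4% to 95.7% between media with that scaling, and from 39.2% to 63.6% in mHep and 37.9% to 58.8% in eHep against primary cells with quantile normalization, which moved the median of all probes by 0.43 and 0.34.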
